A study of Mus musculus with 6 samples.

Results

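Aminoacyl-tRNA synthetases are the enzymes that join each amino acid to its tRNA, and they were described here in mouse myoblasts, the muscle precursor cells that grow out from satellite cells. The genes were taken by symbol from the deposited table of expression values: 20 cytosolic synthetases under their older symbols, and a given list of 16 mitochondrial synthetases whose symbols end in ars2, or 36 of 25220 genes in all. The question was whether either class changed in cells in which Psat1 was targeted, and whether the classes differed.

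The cells were primary myoblasts from hindlimb muscle, kept in Ham's F10 medium with 10% horse serum and 2.5 ng/mL basic fibroblast growth factor, and poly(A) RNA was sequenced. The 3 control libraries (Ctrl) came from cells of genotype Pax7 +/+; Psat1fl/fl, and the 3 Psat1 cKO libraries from cells of genotype Pax7 CRE+/-;Psat1fl/fl. Both groups carried floxed Psat1 alleles, and Cre, carried at the locus of Pax7 (the satellite cell transcription factor), was present in Psat1 cKO only. Cre and the loss of Psat1 therefore cannot be told apart, and the labels give neither an age nor whether Cre was induced. Levels are in RPKM, which divides reads by transcript length and by library size.

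Psat1 encodes the aminotransferase of serine synthesis. It was lower in all 3 Psat1 cKO libraries (63.5, 74.7 and 71.8 RPKM) than in all 3 controls (91.8, 93.4 and 100.2 RPKM), with a log2 fold change of -0.44 ± 0.07 (SE; limma, adjusted p = 0.0225). Leaving out any single library except Psat1 cKO 1 ended this call (adjusted p from 0.0517 to 0.0834 in those 5 fits). Of 10 myoblast markers 9 could be tested, and 2 fell, Pax7 and Myf5. Over all genes tested 0.490% were called lower and 1.80% higher in Psat1 cKO. Cre sits at the Pax7 locus in Psat1 cKO only. An effect of that allele on Pax7 therefore cannot be told apart from a change in the cells. Myf5 was not called without Ctrl 2 or without Psat1 cKO 2 (limma, adjusted p = 0.0560 and 0.0523). The summed level of the myoblast list was 1514 to 1690.2 RPKM in Ctrl and 1282 to 1446 RPKM in Psat1 cKO. Of 10 markers of fibro-adipogenic progenitors 6 could be tested and 4 rose (Pdgfra, Cd34, Smoc2 and Mfap5), and the summed level of the list was 10.3 to 12.4 RPKM in Ctrl and 25.8 to 37.1 RPKM in Psat1 cKO; the defining markers Dpt and Pi16 were at 0 in every Ctrl library and in 2 of the 3 Psat1 cKO libraries each, with 0.0299 and 0.0126 RPKM in the remaining one. With 1 library left out, between 1 (without Ctrl 2) and 3 of these markers were called. Of 8 smooth muscle and pericyte markers 6 could be tested and 2 rose (Tagln and Mcam). Summed levels were 174 to 321 RPKM in Ctrl and 279 to 366 RPKM in Psat1 cKO. Most of that sum was Acta2, which was not called (198 ± 65.4 and 214 ± 37.3 RPKM, SD, n = 3 each). With 1 library left out between 0 (without Psat1 cKO 2) and 2 of these markers were called, and Tagln in 2 of the 6 fits only. Neither Psat1 nor any marker of these 3 lists was called when genes of all levels were tested. The sums were 2.45 to 4.82 against 3.49 to 11.4 RPKM for 7 endothelial markers and 17.2 to 27.3 against 12.9 to 25.8 RPKM for 7 immune markers. Of each of these lists 3 markers could be tested and none was called, but Cdh5 (endothelial) was higher without Ctrl 1 (limma, adjusted p = 0.0287). The immune sum was mostly Laptm5, with means of 18.5 RPKM in Ctrl and 13.5 RPKM in Psat1 cKO (log2 fold change -0.44). The others tested in that list went the other way, Lyz2 (0.97) and Cd68 (0.27). The part of the cell types of these lists in the values below was not tested. The depth, estimated as the reads that 1 RPKM stands for in a transcript of 1 kb, was 33.6, 39.3 and 43.1 reads in Ctrl and 35.1, 28.9 and 19.5 reads in Psat1 cKO.

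Cytosolic synthetases charge the tRNAs that ribosomes in the cytosol use, and several of them sit with the scaffold proteins Aimp1, Aimp2 and Eef1e1 in a multisynthetase complex. Mitochondrial synthetases are encoded in the nucleus and imported, and they serve the few proteins that mitochondria make for oxidative phosphorylation. When amino acids are scarce, uncharged tRNA activates the kinase Gcn2 (Eif2ak4), eIF2 is phosphorylated, and the transcription factor ATF4 is translated. ATF4 binds C/EBP-ATF response elements and is known to raise many cytosolic synthetase genes together with genes of amino acid uptake and synthesis, Psat1 among them. Gars and Kars each encode both the cytosolic and the mitochondrial enzyme. Mitochondria have no glutamine enzyme of their own: glutamate is loaded first and converted by the amidotransferase made of Gatb, Gatc and Qrsl1.

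The promoters of the classes were compared for the C/EBP-ATF response element. The motif TGATGNAAN was searched on both strands in RefSeq windows of GRCm38.p6 that run from 250 bases before to 50 bases after the start of a gene, and 27 of the 36 synthetases had a window. Not among them were Cars, Hars, Lars, Nars, Rars, Vars, Wars, Hars2 and Pars2. A match was present in 5 of 13 cytosolic windows (38.5%) and in 0 of 14 mitochondrial windows. Over all genes the share was 4.50% of 27025, and among genes expressed here and tested it was 2.56% of 9681. This difference was not tested. The 5 genes are those of the alanine (Aars), glycine (Gars), isoleucine (Iars), threonine (Tars) and tyrosine (Yars) enzymes. The 30 bases around the match nearest the start of each gene are shown because ATF4 is known to act on cytosolic synthetases through such elements, 5′ to 3′ on the strand on which the motif reads from TGATG, with the match in capitals and with its first and last base counted from the start at 0. That start is the one used by the RefSeq window, and for Aars and Yars it lies inside the annotated span of the gene, downstream of the first base of the span.
Aars, chr8:111033840-111033869, minus strand, match from 8 to 16: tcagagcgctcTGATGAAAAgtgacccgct
Gars, chr6:55037960-55037989, minus strand, match from -31 to -23: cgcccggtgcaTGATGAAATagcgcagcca
Iars, chr13:49682126-49682155, minus strand, match from 6 to 14: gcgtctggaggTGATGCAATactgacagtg
Tars, chr15:11399655-11399684, plus strand, match from -16 to -8: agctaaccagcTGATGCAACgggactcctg
Yars, chr4:129189896-129189925, plus strand, match from 3 to 11: cgagctcagcTGATGCAACccgacgggact

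Aars, Gars and Iars lie on the plus strand, so that their matches read on the strand opposite to the gene, as does that of Tars, a gene of the minus strand. In 3 of the 5 matches shown, TGATG was followed by CAA. The 100 bases before the start of Gars, the matched gene with the highest level, are shown on the strand of the gene, with the match in capitals, beside the 100 bases before the start of Sars2, the mitochondrial serine enzyme, which hold no match. The start used for Sars2 also lies downstream of the first base of its span, so the last bases of that stretch fall within the gene.
Gars, chr6:55037901-55038000, plus strand: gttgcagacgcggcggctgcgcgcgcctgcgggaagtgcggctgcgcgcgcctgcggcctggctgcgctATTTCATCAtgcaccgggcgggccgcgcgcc
Sars2, chr7:28741868-28741967, plus strand: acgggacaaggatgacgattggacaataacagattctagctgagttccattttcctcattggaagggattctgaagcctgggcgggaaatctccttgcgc

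The core of the sites of NRF1, a factor known for binding promoters of nuclear genes of mitochondrial proteins, was searched in the same windows. It was written as GCGC, any 2 bases and GCGC again, which reads the same on both strands. It matched in 3 of 13 cytosolic windows (23.1%, Farsb, Kars and Tars) and in 2 of 14 mitochondrial windows (14.3%, Mars2 and Iars2), beside 15.6% of the windows of tested genes. A match says only that these letters are present. The 5 cytosolic genes with a TGATGNAAN match had a median level of 81.3 RPKM (39.7 to 122 RPKM). The 8 with a window but no match had 58.2 RPKM (30.5 to 72.4 RPKM), so the ranges overlapped. Cytosolic genes with no window, Nars at 162 RPKM among them, are in neither set. The median log2 fold changes in Psat1 cKO were -0.06 with and -0.04 without a match.

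The classes were expressed at different levels. The median cytosolic synthetase stood at 58.8 RPKM over the 6 libraries and the median mitochondrial synthetase at 7.54 RPKM, and the median of all 12251 genes tested was 9.55 RPKM. Within the cytosolic class the range was from Farsb, the beta subunit of the phenylalanine enzyme, at 30.5 RPKM to Nars, the asparagine enzyme, at 162 RPKM. Nars was followed by Gars at 122 RPKM. Next came Aars and Rars, the arginine enzyme, at 92.2 and 92.1 RPKM, which did not differ beyond their spread. Nars stood at 162, 159 and 171 RPKM in Ctrl and 159, 162 and 161 RPKM in Psat1 cKO, above every other cytosolic synthetase in every library.

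Within the mitochondrial class Wars2, the tryptophan enzyme, was the lowest at 2.28 RPKM. Pars2 (proline) at 2.61 RPKM and Ears2 (glutamate) at 2.81 RPKM came next. Iars2 (isoleucine) at 26.6 RPKM, Yars2 (tyrosine) at 21.3 RPKM and Rars2 (arginine) at 14.9 RPKM were above the rest of the class, with the exception of Lars2, the leucine enzyme, at 111 RPKM. The values of Lars2, in which the part of ribosomal RNA was not tested, are taken up below. Between 7.20 and 7.82 RPKM lay 6 genes, in the order Vars2 (valine), Aars2 (alanine), Hars2 (histidine), Sars2 (serine), Fars2 (phenylalanine) and Tars2 (threonine), in which neighbours did not differ beyond their spread. Wars2 in Psat1 cKO 3, the lowest value of any synthetase in the shallowest library, still rested on about 42 reads per kilobase, a counting error of 15%.

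**Figure D1:**
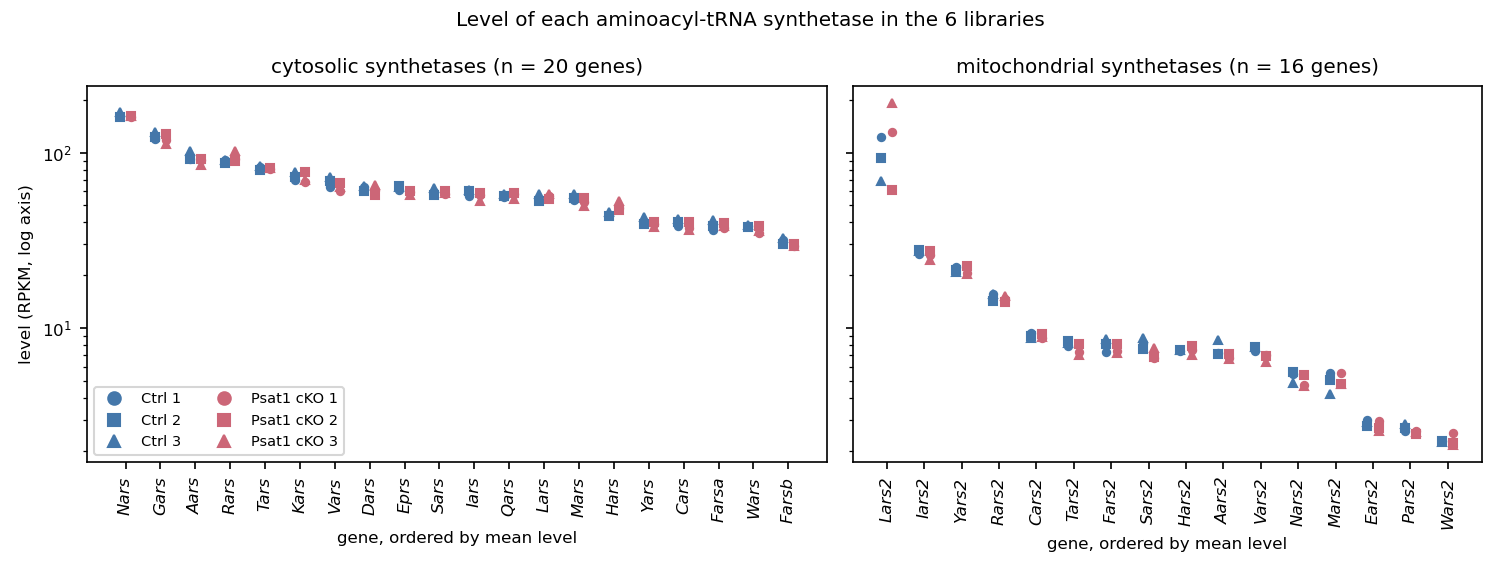
Level of each synthetase in RPKM (log axis) in each of the 6 libraries, with genes ordered by mean level within their class, controls in blue and Psat1 cKO in red, and the replicate number shown by the marker. The cytosolic genes lie between means of 30.5 and 162 RPKM and most mitochondrial genes below 10.0 RPKM, and only Lars2 spreads widely between libraries.

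Setting each mitochondrial enzyme beside its cytosolic counterpart for the same amino acid gave 17 pairs over 16 amino acids, since Farsa and Farsb are subunits of 1 enzyme and Eprs loads both glutamate and proline. In 16 of the 17 pairs the cytosolic gene was above the mitochondrial gene in every library, and the median ratio of levels was 7.89. The exception was leucine: Lars over Lars2 was 0.616 ± 0.201 in Ctrl and 0.544 ± 0.314 in Psat1 cKO (SD, n = 3 each). Lars2 varied widely between libraries, and the part of ribosomal RNA in its values was not tested. The smallest ratios after leucine were those of tyrosine (Yars over Yars2, mean 1.86) and isoleucine (Iars over Iars2, 2.17). Phenylalanine followed at 3.93 (Farsb) and 4.94 (Farsa), cysteine (Cars over Cars2) was at 4.33, arginine (Rars over Rars2) at 6.18 and histidine (Hars over Hars2) at 6.30.

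Ratios in the middle of the order were 7.89 for serine (Sars over Sars2), 9.18 for valine (Vars over Vars2), 10.4 for threonine (Tars over Tars2) and 10.9 for methionine (Mars over Mars2). Alanine (Aars over Aars2) was at 12.8 and tryptophan (Wars over Wars2) at 16.4. The largest were 21.8 for glutamate (Eprs over Ears2), 23.4 for proline (Eprs over Pars2) and 31.9 for asparagine (Nars over Nars2).

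**Figure D2:**
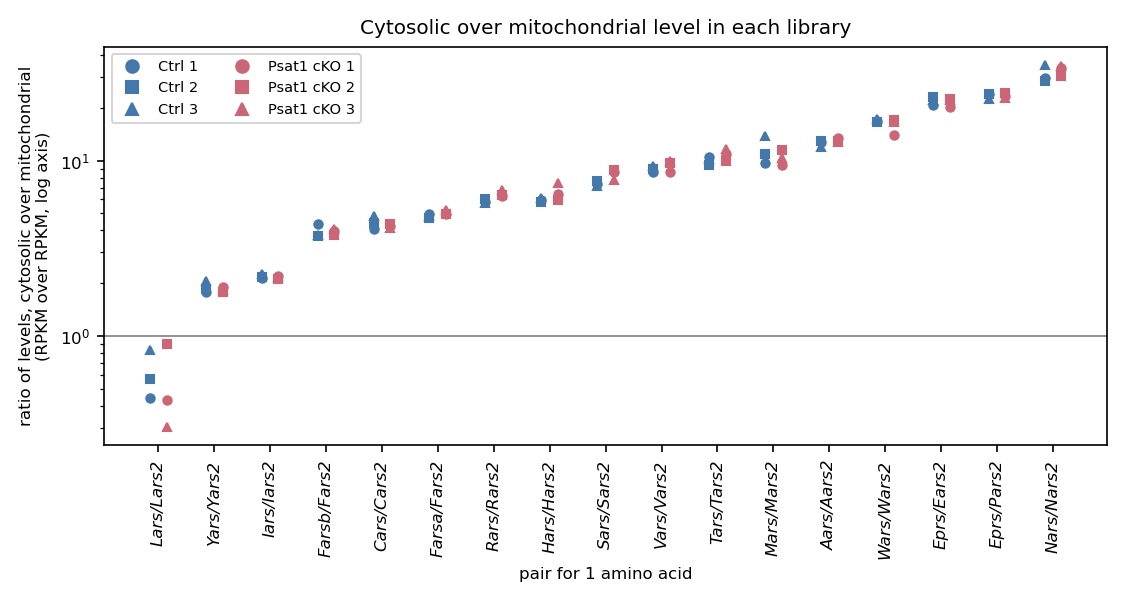
Ratio of the cytosolic to the mitochondrial level (RPKM over RPKM, log axis) for each of the 17 pairs in each library, with controls in blue and Psat1 cKO in red, and the line at a ratio of 1. Only the leucine pair lies below 1, and in all pairs except arginine and serine the groups overlap.

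The ratios were close between the groups. Leaving out leucine, whose mean log2 ratio differed by -0.28 in Psat1 cKO with overlapping groups, the mean log2 ratio moved by between -0.13 (methionine) and 0.19 (serine). The groups did not overlap for 2 of the 17 pairs. Among single genes tested the groups were without overlap for 20.5%, and no such share was counted for ratios. The serine ratio was 7.31, 7.63 and 7.14 in Ctrl and 8.65, 8.88 and 7.70 in Psat1 cKO. The arginine ratio was 5.83, 6.07 and 5.76 in Ctrl and 6.29, 6.37 and 6.76 in Psat1 cKO, or 0.14 higher on the log2 scale. An exact two-sided permutation test of 3 against 3 libraries cannot give a p below 0.1, so these ratios carry no call.

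No synthetase of either class was called. Among all 12251 genes tested 2.29% were called (limma, adjusted p under 0.05), 1.80% higher and 0.490% lower in Psat1 cKO, and among the synthetases it was 0 of 20 cytosolic and 0 of 16 mitochondrial genes. At an unadjusted p under 0.05 there were 3 of 36 synthetases, beside 14.4% of all genes: Hars was higher, as were 7.56% of all genes, and Vars2 and Sars2 were lower, as were 6.82%. The authors' deposited table gave 4 synthetases a p under 0.05, namely Sars2 (0.00926), Eprs (0.00931), Vars2 (0.0276) and Hars (0.0335). The share of all genes of that table with p under 0.05 was not counted, so these 4 have no background. No synthetase had q under 0.05 there, the smallest q being 0.225, beside 115 of the 25220 genes of that table, some of which lack a p. For 5 of 36 synthetases the groups were without overlap, beside 20.5% of all genes tested: Hars was higher in every Psat1 cKO library (10.0% of all genes), and Eprs, Aars2, Pars2 and Vars2 were lower (10.5%).

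The intervals hold for each gene taken singly, with no allowance for the number of genes. They reflect only how these samples spread, which may be technical. For the 20 cytosolic genes, the 95% intervals of the log2 fold change lay between -0.25 and 0.28, or between 15.7% lower (-15.7%) and 21.1% higher. For the 15 mitochondrial genes other than Lars2 they lay between -0.38 and 0.28, or from -23.0% to 21.1%. The interval of Lars2 was wider, from -33.1% to 134.0%. The fold changes are on the scale of log2 of RPKM + 0.5 and understate changes of low genes, mitochondrial synthetases more than cytosolic ones. The median log2 fold change was -0.05 for the cytosolic and -0.06 for the mitochondrial class, beside -0.01 for all genes tested. The log2 fold change was below 0 for 16 of 20 cytosolic and 12 of 16 mitochondrial genes, beside 54.1% of all genes.

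**Figure D3:**
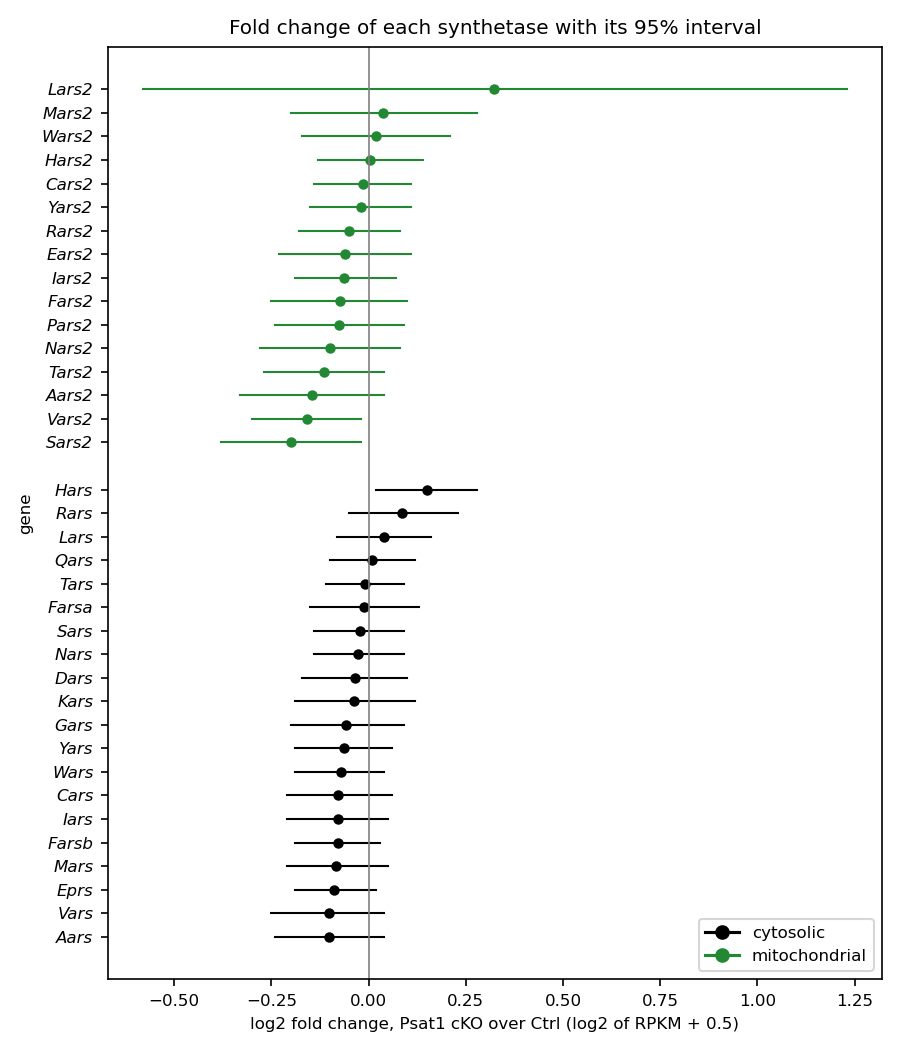
Log2 fold change of each synthetase in Psat1 cKO over Ctrl on the scale of log2 of RPKM + 0.5, with its 95% interval from limma, for the mitochondrial class (green, above) and the cytosolic class (black, below). All intervals except those of Hars, Vars2 and Sars2 include 0, and that of Lars2 is the widest, from -0.58 to 1.23.

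Among cytosolic genes, Hars, the histidine enzyme on chromosome 18, stood at 44.0, 43.6 and 45.6 RPKM in Ctrl and 48.4, 47.1 and 52.7 RPKM in Psat1 cKO. All 3 Psat1 cKO libraries were above all 3 controls, and Psat1 cKO 3 was the highest. Its log2 fold change was 0.15 ± 0.05 (SE; limma, adjusted p = 0.265). Hars and Hars2 lie head to head and share 4 bases in RefSeq, and whether reads were counted by strand is not given in the sources used here. Hars2 stood at 7.45 ± 0.0782 RPKM in Ctrl and 7.47 ± 0.412 RPKM in Psat1 cKO (SD, n = 3 each), with overlapping groups.

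Eprs (GRCm38 chr1:185361417-185428360), which loads glutamate and proline, stood at 61.3, 64.1 and 63.8 RPKM in Ctrl and 59.8, 60.4 and 57.5 RPKM in Psat1 cKO. The means were 63.1 ± 1.51 and 59.3 ± 1.52 RPKM (SD, n = 3 each), the nearest libraries of the groups were closer together than either SD, and the log2 fold change was -0.09 ± 0.05 (SE; limma, adjusted p = 0.438). The other cytosolic genes with the smallest p had overlapping groups. They were Aars (log2 fold change -0.10, adjusted p = 0.507), Farsb (-0.08, adjusted p = 0.515), Vars for valine (-0.10, adjusted p = 0.523), Wars for tryptophan (-0.07, adjusted p = 0.565), Mars for methionine (-0.08, adjusted p = 0.568) and Rars (0.09, adjusted p = 0.581), with standard errors of 0.05 to 0.06 (limma). Rars was at 90.7, 86.9 and 90.3 RPKM in Ctrl and 92.0, 90.0 and 103 RPKM in Psat1 cKO, where the third library was the highest of all and the second lay among the controls.

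Sars, the cytosolic enzyme for serine, was at 59.8, 57.5 and 62.9 RPKM in Ctrl and 57.9, 60.6 and 59.0 RPKM in Psat1 cKO. Its groups overlapped, and its log2 fold change was -0.02 with a 95% interval from -0.14 to 0.09. Gars, the cytosolic and mitochondrial enzyme for glycine, which cells make from serine, was at 119, 123 and 130.1 RPKM in Ctrl and 119, 127 and 112 RPKM in Psat1 cKO, again with overlap and an interval from -0.20 to 0.09. The 8 synthetases of the multisynthetase complex (Dars, Eprs, Iars, Kars, Lars, Mars, Qars and Rars) had a median log2 fold change of -0.04 with intervals between -0.21 and 0.23, and the 12 outside it had a median of -0.06. None of the 3 scaffold genes was called, beside 2.29% of all genes. Aimp1 had a log2 fold change of 0.00, Aimp2 of 0.03 and Eef1e1 of 0.15 (limma, adjusted p = 0.439).

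Among mitochondrial genes, Vars2 (GRCm38 chr17:35655634-35667639), the valine enzyme, was at 7.39, 7.74 and 7.75 RPKM in Ctrl and 7.01, 6.94 and 6.39 RPKM in Psat1 cKO. Its groups did not overlap, and its log2 fold change was -0.16 ± 0.06 (SE; limma, adjusted p = 0.275). Sars2 (GRCm38 chr7:28741957-28753879), the serine enzyme, was at 8.18, 7.54 and 8.81 RPKM in Ctrl and 6.70, 6.83 and 7.65 RPKM in Psat1 cKO, where the third library lay above the lowest control. Its log2 fold change was -0.20 ± 0.08 (SE; limma, adjusted p = 0.298). Aars2, the alanine enzyme, was at 7.21, 7.13 and 8.57 RPKM in Ctrl and 6.71, 7.13 and 6.67 RPKM in Psat1 cKO. Ctrl 3 stood apart from the other libraries, Ctrl 2 and Psat1 cKO 2 were equal to 3 digits, and the log2 fold change was -0.15 ± 0.08 (SE; limma, adjusted p = 0.463), or -0.06 without Ctrl 3.

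Pars2 was at 2.58, 2.68 and 2.84 RPKM in Ctrl and 2.57, 2.48 and 2.54 RPKM in Psat1 cKO, so the groups were apart only in the third digit, with a log2 fold change of -0.08 (limma, adjusted p = 0.681). Tars2 (threonine, -0.11, adjusted p = 0.497), Nars2 (asparagine, -0.10, adjusted p = 0.629), Iars2 (-0.06, adjusted p = 0.671) and Fars2 (phenylalanine, -0.07, adjusted p = 0.716) had overlapping groups, with standard errors of 0.06 to 0.08 (limma). In all, the RefSeq spans of 16 synthetases meet another gene and those of 8 another protein-coding gene, Mars and Ddit3 (71 shared bases) among them.

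**Figure D4:**
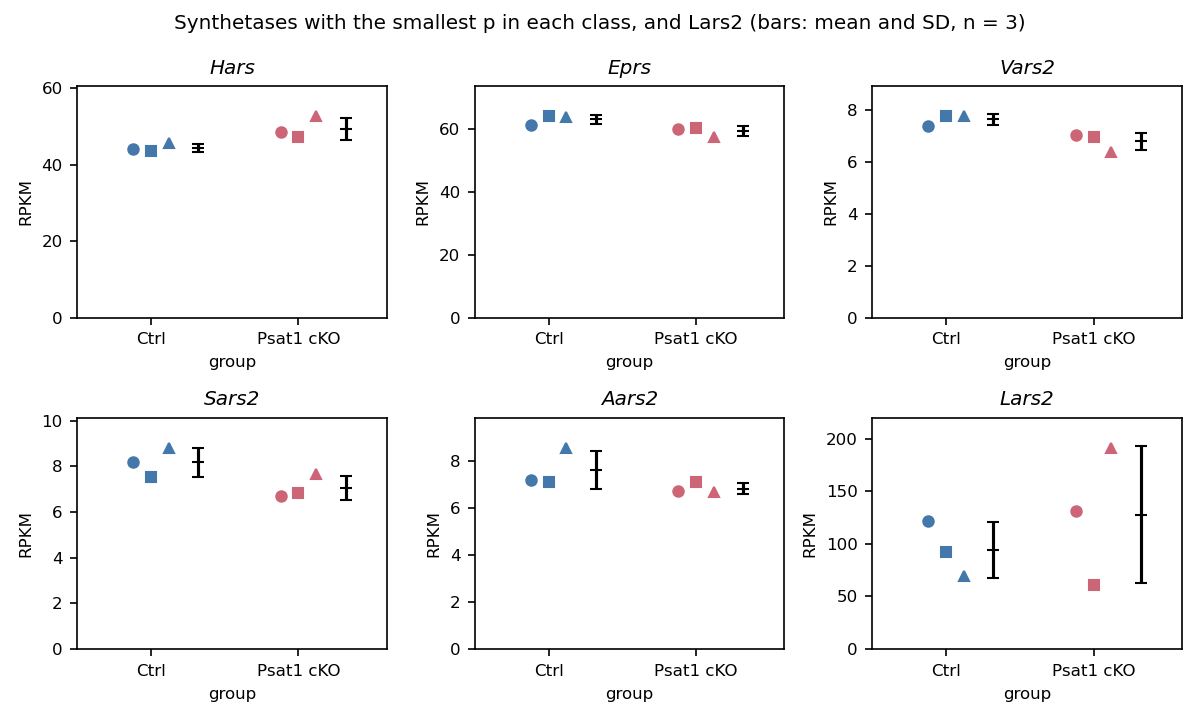
Levels in RPKM of 6 synthetases in each library of Ctrl (blue) and Psat1 cKO (red), with bars for the mean and SD (n = 3 each) and the replicate number shown by the marker. The groups are apart for Hars (higher in Psat1 cKO), Eprs and Vars2 (lower), and overlap for Sars2 and Lars2. For Aars2 (lower) they nearly touch, with Ctrl 2 and Psat1 cKO 2 both at 7.13 RPKM.

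Lars2 (GRCm38 chr9:123366927-123462675) varied far more than any other synthetase. It stood at 122, 92.5 and 69.0 RPKM in Ctrl and 131, 60.8 and 191 RPKM in Psat1 cKO. Psat1 cKO held both its lowest and its highest library, with all controls between them. Its coefficient of variation over the 6 libraries was 43.3%, beside 10.5% for Sars2, the next synthetase in this order, medians of 4.77% for the cytosolic and 6.24% for the mitochondrial class, and 7.33% for all genes tested. Of the 10243 genes at 2 RPKM or more on average, 100 varied as much or more. Its log2 fold change was 0.32 ± 0.39 (SE; limma, adjusted p = 0.766), and -0.04 without Psat1 cKO 3.

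The order of the 6 libraries by Lars2 was the same as by 3 other rows, which were picked after their values were seen for following Lars2. Rn45s, the precursor of ribosomal RNA, was at 604, 533 and 461 RPKM in Ctrl and 635, 377 and 1017 RPKM in Psat1 cKO. Mir6240 was at 120.3, 81.2 and 63.2 RPKM in Ctrl and 127, 49.8 and 173 RPKM in Psat1 cKO. Mir6236 was at 281, 227 and 165 RPKM in Ctrl and 298, 127 and 507 RPKM in Psat1 cKO. Rars2, by contrast, lay between 14.1 and 15.7 RPKM in every library. In RefSeq the span of Lars2 shares 8819 bases with the noncoding gene Gm46137. What part ribosomal RNA in the libraries has in the Lars2 values was not tested.

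**Figure D5:**
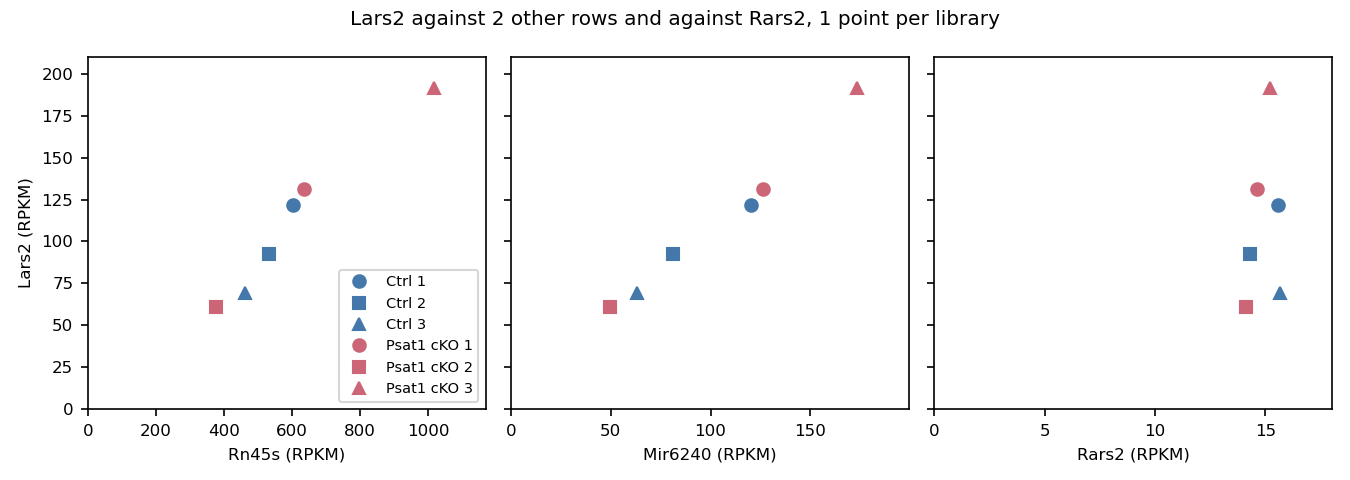
Level of Lars2 in RPKM against the levels of Rn45s, Mir6240 and Rars2 in RPKM, with 1 point for each library, controls in blue and Psat1 cKO in red. Lars2 orders the libraries as Rn45s and Mir6240 do, from Psat1 cKO 2 (60.8 RPKM) to Psat1 cKO 3 (191 RPKM), while Rars2 stays between 14.1 and 15.7 RPKM.

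The other synthetases varied by 10.5% or less, and Tars, the cytosolic threonine enzyme, had the lowest coefficient of variation, 1.89%. Many cytosolic synthetases deviated together in single libraries. Ctrl 3 was the highest library for 14 of 20 cytosolic and 6 of 16 mitochondrial synthetases, and Psat1 cKO 3 was the lowest for 9 and 10. Such shares were not counted over all genes. In Ctrl 3 all 20 cytosolic genes were above the control mean, beside 6562 of 12251 genes tested. The control mean includes Ctrl 3 itself. The median deviation there was 0.06 on the log2 scale for the cytosolic class and 0.01 for all genes tested. In Psat1 cKO 3 the median deviation was -0.08 for both classes, and -0.02 for all genes. Ctrl 3 was the deepest and Psat1 cKO 3 the shallowest library. The part of depth in these deviations was not tested. With 1 library left out, the median log2 fold change ranged from -0.09 (without Psat1 cKO 2) to -0.02 (without Ctrl 3) for the cytosolic and from -0.07 to -0.04 for the mitochondrial class.

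Genes that work beside the synthetases were not called either, beside 2.29% of all genes tested. At that share a list this short is likely to hold no called gene. Of 5 partners of mitochondrial charging none was called, with a median log2 fold change of -0.02: the amidotransferase subunits had -0.13 (Gatb), -0.02 (Gatc) and -0.11 (Qrsl1), and Trnt1, which adds the CCA end to tRNAs, had 0.09. Of 8 genes of editing and related charging none was called (median -0.03), with -0.12 for Aarsd1, which clears mischarged alanine tRNA, -0.14 for Prorsd1 and 0.13 for Tarsl2, a second threonine enzyme. None of 9 cytosolic elongation and release factors was called (median 0.02, range -0.03 to 0.06), among them the release factors Etf1 (0.06) and Gspt1 (0.04) and the recycling factor Abce1 (0.06). None of 12 mitochondrial translation factors was called (median -0.07), with -0.12 for the elongation factor Tufm, -0.09 for Gfm1 and -0.15 for Taco1, an activator of Cox1 translation.

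The ATF4 pathway, which raises cytosolic synthetases, had no called gene among 25, beside 2.29% of all genes. The list of 25 leaves out Psat1, which was called lower. At an unadjusted p under 0.05 (limma) there were 8 of 25, all lower in Psat1 cKO. Of all genes 6.82% were lower at that threshold, and 14.4% passed it in either direction. The median log2 fold change of the list was -0.14, with 21 of 25 below 0, beside 54.1% of all genes. Atf4 itself was at 208, 214 and 244 RPKM in Ctrl and 199, 201 and 191 RPKM in Psat1 cKO, without overlap of the groups, and its log2 fold change was -0.17 (limma, adjusted p = 0.316). Trib3, an ATF4 target that feeds back on ATF4, was at 15.6, 16.4 and 17.7 RPKM in Ctrl and 13.8, 13.6 and 11.7 RPKM in Psat1 cKO (log2 fold change -0.34, limma adjusted p = 0.0779). Aldh1l2, a mitochondrial folate enzyme, was at 6.47 ± 0.206 against 5.21 ± 0.342 RPKM (SD, n = 3 each; log2 fold change -0.29, limma adjusted p = 0.0779). Atf3, a related transcription factor, had a log2 fold change of -0.32 (limma, adjusted p = 0.110). The 20 cytosolic synthetases had a median of -0.05, and the 5 with a TGATGNAAN match lay between -0.10 and -0.01.

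Of 12 genes of the stress kinases and of eIF2 and its exchange factor none was called, beside 2.29% of all genes. Their median log2 fold change was -0.05. Eif2ak4, the sensor of uncharged tRNA, was at 6.20 ± 0.152 RPKM in Ctrl and 5.67 ± 0.392 RPKM in Psat1 cKO (SD, n = 3 each), with a log2 fold change of -0.12 (limma, adjusted p = 0.472). Ppp1r15a, which directs eIF2 dephosphorylation, had -0.20 (limma, adjusted p = 0.417), or -0.09 without Ctrl 3, and Eif2b4, a subunit of the exchange factor, had -0.14 (limma, adjusted p = 0.387). Of 10 differentiation genes of muscle none was called, beside 2.29% of all genes. Their median log2 fold change was -0.43 with all 10 below 0, beside 54.1% of all genes. At an unadjusted p under 0.05 (limma) 7 of the 10 were lower, beside 6.82% of all genes. Ckm, muscle creatine kinase, had the smallest p (log2 fold change -0.63, limma adjusted p = 0.0658). Leaving out Psat1 cKO 1 gave a call for Ckm (adjusted p = 0.0130), and leaving out Ctrl 3 gave 1 for Tnnc2, a fast muscle troponin. Fewer differentiating cells and less RNA per cell cannot be told apart in these bulk libraries.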

How the data were processed

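The authors deposited RPKM values for 25220 genes in 6 libraries. Their comparison table holds group means on a log2 scale and p- and q-values, per the file headers; p is missing there for 3695 genes. Per the submitters' processing notes, the tools included Partek, TopHat2 2.1.1 and Trim Galore 0.6.6, with mm10 as the build and no order given. The annotation, the counting method and the use of strand were not given in the sources used here. Libraries were grouped by title. The labels do not say that replicates came from separate cultures or animals, so a p-value here reflects only how these samples spread, which may be technical. No pair of libraries shared more than 0.00602% of values above 0.

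The 12251 genes that averaged 0.5 RPKM or more entered a limma fit (version 3.58.1, R 4.3.3; lmFit, eBayes with trend) on log2 of RPKM + 0.5, with genotype as the term, no block, and Benjamini-Hochberg adjustment over all genes tested. The threshold was an adjusted p of 0.05. Depth was estimated from the steps between low RPKM values in 2413 single-exon GENCODE M21 genes, where 41.2% to 47.8% of values of up to 20 reads lay within 1% of whole reads, so no count test was run. A level of 3 reads in 1 kb was 0.0697 to 0.154 RPKM, which covers counting error only. Motifs were searched in RefSeq promoter windows of GRCm38.p6; Mars is Mars1 there. Fold changes were compared between fits for Psat1, the 8 of each class with the smallest p and the highest and lowest by level. Up to 3 genes per other list were compared in the same way. Mfap5, Dcn, Tnnc2 and Mylpf were also named because a fit called them, and Acta2, Dpt and Pi16 for their levels. Sars, Gars, Gatc, Atf4, Rn45s, Mir6240, Mir6236 and the NRF1 motif were chosen after values were seen. The synthetases and all lists were chosen with earlier results of these data known. Some items are not reported here. Alternatives were pseudocounts of 0.1 and 1, no filter, a filter at 2 RPKM, quantile normalization, TMM scaling, a replicate block, a fit with no trend, and each library left out.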

Additional observations from a re-analysis of the deposited data

How the results depend on the processing

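No synthetase was called under any of the 14 alternatives, and the smallest adjusted p of any of them was 0.197 (Sars2, with the replicate number as a block). The test called 220 genes higher and 60 lower over the whole table. These counts were 1 and 3 without a filter, and 200 and 121 with the replicate block. The block also added calls among the marker lists, for Ckm (adjusted p = 0.0373), Tnnt3 (0.0247), Mylpf and Laptm5 (0.0287), all lower, and for Dcn, higher, and ended those of Tagln (0.0638) and Mfap5. When 1 library was left out the counts over the whole table ranged from 49 to 173 and from 12 to 55. Same-numbered libraries of the groups had correlations of their deviations of 0.20, -0.03 and 0.17. Ctrl 1 and Ctrl 3 correlated best with their own number, and Ctrl 2 did not (0.03 with Psat1 cKO 3). With 3 libraries per group such values cannot decide whether the numbers mark pairs. The labels do not say that they do, so the main fit had no block. The difference of the class medians, mitochondrial minus cytosolic, was -0.01 and ranged from -0.03 to 0.02 when 1 library was left out. Of 266 log2 fold changes of named synthetases under alternatives 3 turned in sign: when 1 library was left out, Nars ranged from -0.05 to 0.00, Wars2 from -0.04 to 0.06 and Lars2 from -0.04 to 0.78. Other named genes that turned were Aimp1 (-0.00 with quantile normalization, -0.04 to 0.04 without 1 library), Abce1 (-0.00 to 0.11), Emcn (-0.24 to 0.87) and Pecam1 (-0.22 to 0.41). The causes were not tested. Depth limits the lowest genes: no synthetase was near the level of 3 reads in 1 kb.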
